A study of Mus musculus with 8 samples.

Results

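Macrophages, the complement proteins they make and the chemokines that position them were followed through 39 genes in mouse atria. The genes were given by symbol, as a list of resident and recruited macrophage markers, complement genes, chemokines, Fc receptors and major histocompatibility complex (MHC) class II genes, with no threshold on a measured value. The list was nevertheless chosen with earlier results of these data known. All 39 were found by symbol among the 54532 genes of the count table, and all 39 passed the filter on low counts that left 18033 genes for testing.

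The study measured messenger RNA of whole atria, right and left, by bulk RNA sequencing in 8 libraries. All animals were Chd4flox/flox, so both groups carried the floxed Chd4 alleles. The KO group (4 libraries) had received AAV9:Nppa-Cre on postnatal day 2, and the control group (4 libraries) had received AAV9:Nppa-EGFP on the same day. The sources used here state neither the age at collection nor how many mice went into a library. Chd4 encodes a chromatin remodeller of the NuRD complex. The Nppa promoter is active in atrial muscle cells, whereas the genes described here are mostly those of macrophages, so most readings concern cells other than those the vector was built to act in. Cre was present in KO and EGFP in control, so an effect of either protein and an effect of losing Chd4 cannot be told apart. The labels number the samples without saying that they were separate mice. The p-values therefore rest on the spread among these libraries, which could be technical in part. Each group held libraries with and without Y-linked expression, given below, so its libraries were not all made from the same mice.

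Tissue macrophages of the heart depend on the receptor CSF1R and its ligands CSF1 and IL-34. Long-lived resident cells carry scavenger receptors such as CD163, MRC1 and TIMD4, and monocyte-derived cells enter through the chemokine receptor CCR2. Complement C1q, made largely by macrophages, tags debris and immune complexes, C3 is the central component of the cascade, and its fragments act on receptors such as C3AR1. Fc receptors and TREM2 signal through the small adaptors FCER1G and TYROBP, and chemokines form the gradients along which such cells move.

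Total counts were 34002292 to 38228982 in KO and 39804625 to 40588007 in control. Chd4 itself had 169, 185, 187 and 200 CPM (counts scaled to 1e6 per library, with TMM factors) in KO libraries 1 to 4, against 278, 297, 284 and 308 CPM in control libraries 1 to 4. KO libraries were thus all below the controls, 1.58-fold on average (adjusted p = 1.86e-05, edgeR's quasi-likelihood test with Benjamini-Hochberg adjustment over all 18033 genes, as for every adjusted p given without another name). On the second principal component KO 2 and control 2 stood away from the rest. The Y-linked gene Ddx3y was at 0.720 CPM in KO 2, against 0.858 and 0.706 CPM in control 1 and control 2, and at 105 to 124 CPM in the other five libraries, so libraries with and without Y-linked expression stood in both groups.

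Of the 39 genes, 12 rose in KO and 27 were not called. Among all tested genes 27.9% were called in either direction (14.8% higher, 13.1% lower), while 30.8% of the 39 genes were called, all of them higher. The genes that rose were the lineage markers Adgre1, Csf1r and Ctss, the CSF1R ligand Csf1, the complement genes C1qa, C1qb, C1qc and C3ar1, the receptor Trem2, and the chemokines Ccl6, Cxcl16 and Cx3cl1. Their fold changes ran from 1.23-fold for Csf1r to 1.93-fold for C3ar1. The median log2 fold change of KO over control was 0.33 over the 39 genes and 0.01 over all tested genes, and 35 of the 39 genes had a positive value, against 51.3% of all tested genes. Since the members were chosen with earlier results of these data known, these shares describe the list and do not test it. No member was called lower by edgeR, 0 were lower at an unadjusted p under 0.05, DESeq2 called 0 lower, and limma-voom with quality weights called 1 lower, Cd163. KO libraries all lay above all control libraries for 9 of the 39 genes, against 15.3% of all tested genes, and for no member did they all lie below, against 13.9% of all tested genes. In bulk tissue, more cells of a type and more RNA per cell cannot be told apart, which applies to each value given here. With libraries scaled to 20 endothelial and fibroblast markers, a setting chosen after the data were seen, 2 members rose and 2 fell. Of all 18033 tested genes, 1136 rose and 7750 fell under that setting.

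**Figure D1:**
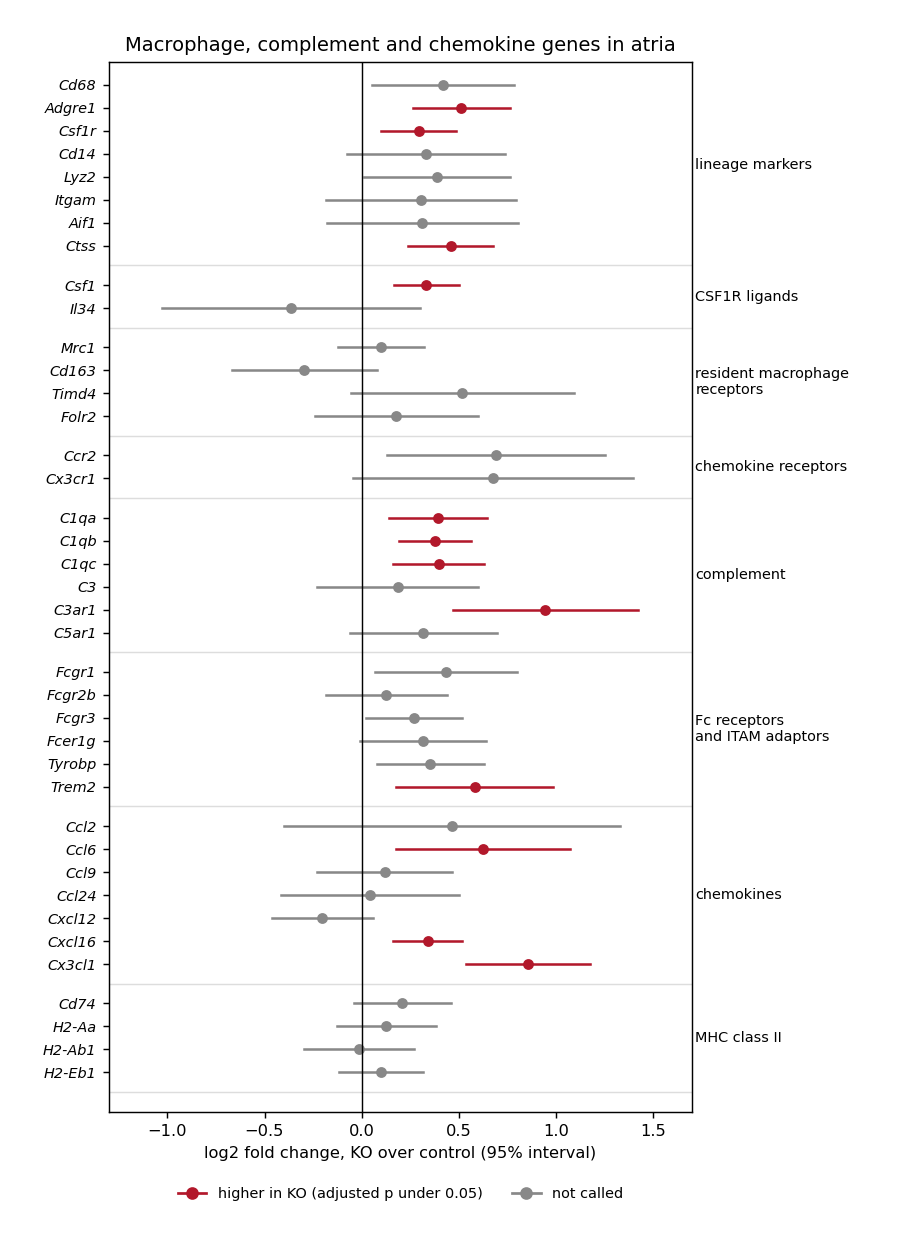
Log2 fold change of KO over control (horizontal axis) for the 39 genes, grouped by role, as points with 95% intervals from the edgeR fit over 4 KO and 4 control libraries; red marks the 12 called genes and grey the others. C3ar1 and Cx3cl1 sit farthest to the right at 0.95 and 0.86, and the intervals of Il34, Cd163 and Cxcl12, the lowest 3, all reach past 0.

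The windows around the start sites of some members are shown because they belong to genes that moved together (the C1q genes, which neighbour each other on chromosome 4), moved most (C3ar1, Cx3cl1) or stayed uncalled (H2-Eb1, a class II gene). RefSeq sequences on GRCm38.p6, from 250 bases before to 50 bases after the start, were held for 28 of the 39 genes, in 30 windows, since Folr2 and Fcgr3 have 2 each and those of Fcgr3 overlap. They are written 5′ to 3′ on the strand of the gene. Capitals mark GAGGAAG or its reverse CTTCCTC, a core bound by ETS factors such as the myeloid factor PU.1, and CCAAT or its reverse ATTGG, a box of the class II promoters that is bound by NF-Y.
C1qb, chr4:136886151-136886450, minus strand: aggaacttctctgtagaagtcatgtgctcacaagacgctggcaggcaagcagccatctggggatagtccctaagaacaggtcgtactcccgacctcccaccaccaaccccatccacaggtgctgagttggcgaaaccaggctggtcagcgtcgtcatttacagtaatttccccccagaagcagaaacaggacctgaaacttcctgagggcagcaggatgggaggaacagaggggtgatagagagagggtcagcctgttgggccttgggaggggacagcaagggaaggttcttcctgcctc
C1qc, chr4:136892865-136893164, minus strand: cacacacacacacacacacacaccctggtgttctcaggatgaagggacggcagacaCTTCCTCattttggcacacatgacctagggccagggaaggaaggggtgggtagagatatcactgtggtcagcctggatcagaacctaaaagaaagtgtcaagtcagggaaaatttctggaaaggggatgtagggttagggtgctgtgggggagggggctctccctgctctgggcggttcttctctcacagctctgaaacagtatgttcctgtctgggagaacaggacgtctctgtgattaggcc
C3ar1, chr6:122856108-122856407, minus strand: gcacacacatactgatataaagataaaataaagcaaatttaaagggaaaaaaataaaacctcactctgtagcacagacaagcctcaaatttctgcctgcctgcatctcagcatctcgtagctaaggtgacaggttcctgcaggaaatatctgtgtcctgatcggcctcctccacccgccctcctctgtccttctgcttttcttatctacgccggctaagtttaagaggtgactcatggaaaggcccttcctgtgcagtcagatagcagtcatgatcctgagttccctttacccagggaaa
Cx3cl1, chr8:94771930-94772229, plus strand: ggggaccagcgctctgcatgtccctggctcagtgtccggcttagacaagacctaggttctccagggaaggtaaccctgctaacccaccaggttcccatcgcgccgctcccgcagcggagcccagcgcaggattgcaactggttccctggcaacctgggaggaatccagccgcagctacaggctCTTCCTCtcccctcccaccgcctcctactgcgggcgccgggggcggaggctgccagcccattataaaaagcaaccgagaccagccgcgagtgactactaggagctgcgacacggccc
H2-Eb1, chr17:34305617-34305916, plus strand: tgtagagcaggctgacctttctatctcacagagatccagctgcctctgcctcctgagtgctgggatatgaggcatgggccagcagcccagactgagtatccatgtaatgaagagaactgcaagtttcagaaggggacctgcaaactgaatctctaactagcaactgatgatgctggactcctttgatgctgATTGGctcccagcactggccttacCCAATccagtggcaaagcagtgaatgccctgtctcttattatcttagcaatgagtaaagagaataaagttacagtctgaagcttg

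Searched on both strands, GAGGAAG was found in 9 of the 30 windows (30%), which belong to the 8 genes C1qc, Ctss, Cx3cl1, Fcgr1, Fcgr3, Itgam, Mrc1 and Trem2, against 13.6% of 32851 windows of 300 bases. CCAAT was found in 9 of 30 windows (30%) against 37.4% of all windows, TATAAA in 5 of 30 (16.7%) against 13.6%, and TTGCGCAA, a C/EBP core, in 0 of 30 against 0.183%. The windows holding GAGGAAG belonged to 4 genes that rose (C1qc, Ctss, Cx3cl1, Trem2) and to 4 that were not called. These are not shares of equal groups, since most of the 28 genes with a window were not called. The other genes that rose and had a window were Csf1, C1qb, C3ar1 and Ccl6. The windows of C3ar1 and C1qb, which rose, held neither of the capitalised motifs, while those of C3ar1 and Cx3cl1 held TATAAA. A match is a string of letters and does not show a bound site.

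Among the 8 lineage markers 3 rose (37.5%, against 14.8% of all tested genes). Adgre1, which encodes the F4/80 antigen of mouse macrophages (ENSMUSG00000004730, chr17:57358691-57483527, plus strand, GRCm38), had 29.5, 30.3, 28.3 and 33.8 CPM in KO libraries 1 to 4, against 22.7, 16.2, 24.4 and 22.1 CPM in control libraries 1 to 4. Every KO library lay above every control library, and the fitted difference was 1.43-fold (log2 0.51 ± 0.11 SE, adjusted p = 0.00588). Ctss, encoding cathepsin S, a protease of antigen-presenting cells, had 25.7, 31.6, 24.0 and 32.1 CPM in KO, against 20.2, 19.0, 22.2 and 21.0 CPM in control. Its groups were also separate, at 1.38-fold (log2 0.46 ± 0.10 SE, adjusted p = 0.00515).

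Csf1r, the growth factor receptor that defines the lineage, had 111, 111, 91.3 and 128 CPM in KO, against 89.9, 84.2, 90.0 and 95.8 CPM in control. Library KO 3 fell among the controls, and the difference of 1.23-fold (adjusted p = 0.0274) was the smallest of the called members. It was lost when any of 6 libraries was left out (KO 1, KO 2, KO 4 and controls 1, 2 and 3), with adjusted p up to 0.0771. Exons of Csf1r share 15.1% of their bases with Hmgxb3 on the opposite strand (30.3 CPM in KO against 30.8 CPM in control, not called), so some of its reads could belong to that gene. Lyz2, encoding lysozyme and the most abundant marker, averaged 167 ± 32.9 CPM in KO against 127 ± 20.6 CPM in control (SD, n = 4 each), with KO 3 at 119 CPM, and was not called (adjusted p = 0.117). Without KO 3 it was called higher at an adjusted p of 0.0113. Cd68, a lysosomal glycoprotein of phagocytes, had 13.5, 8.78, 7.38 and 10.2 CPM in KO, against 7.15, 6.78, 7.33 and 8.53 CPM in control (adjusted p = 0.0819), and was likewise called higher without KO 3 (0.0279). The co-receptor Cd14 and the low genes Itgam and Aif1 had log2 fold changes of 0.33, 0.31 and 0.31, with overlapping groups and intervals that included 0. Exons of Itgam shared 68.7% of their bases with the same-strand gene model Gm49368, which had at most 0.0295 CPM, so its count is uncertain.

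Per kilobase of exon, C3 was the most abundant of the 39 genes at 221 CPM per kb in KO and 194 CPM per kb in control, followed by Lyz2 at 127 and 96.7 CPM per kb and C1qa at 68.8 and 52.4 CPM per kb. Csf1r stood at 19.1 CPM per kb in KO and 15.6 CPM per kb in control, while Ccr2 stood at 0.983 and 0.608 CPM per kb and Itgam at 0.668 and 0.540 CPM per kb.

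**Figure D2:**
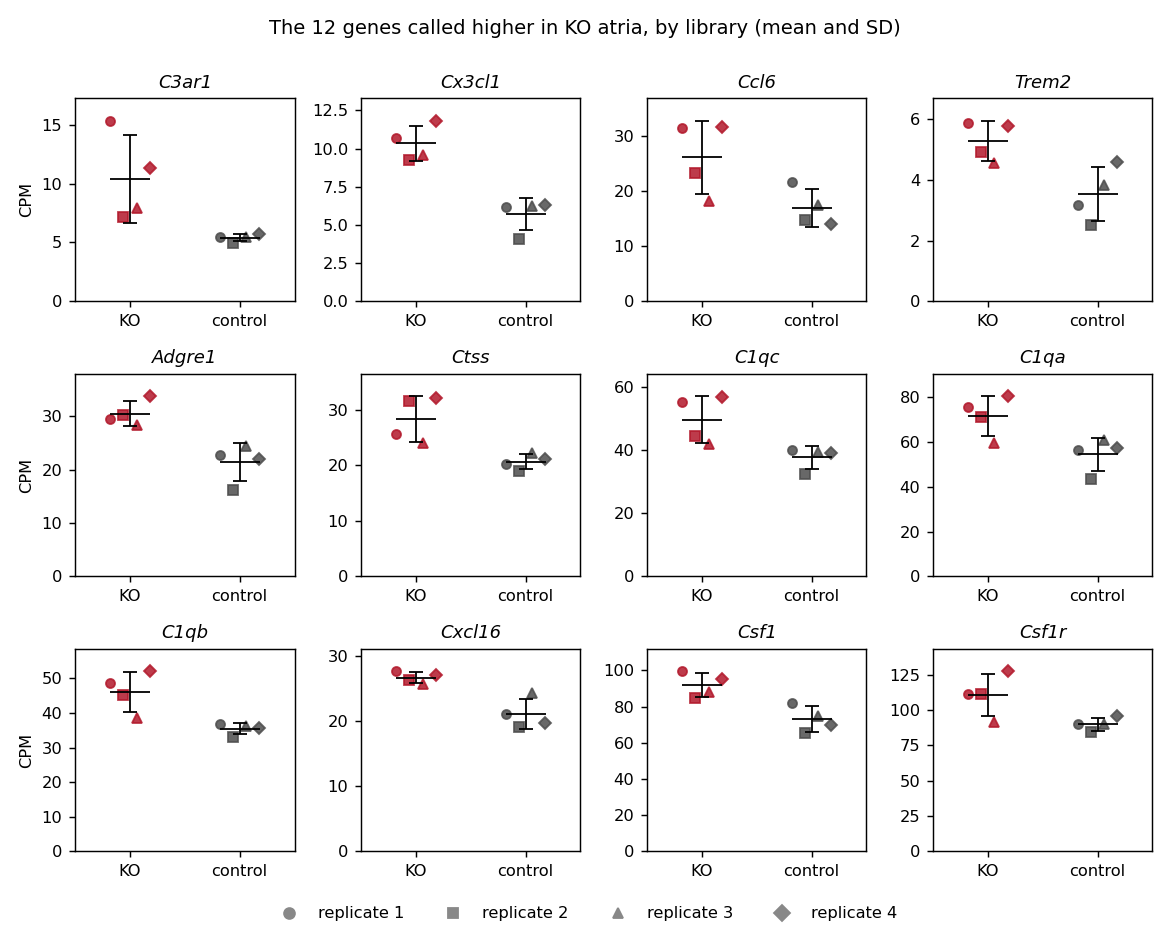
CPM (TMM-scaled, vertical axis from 0) of the 12 called genes in each library, with KO left and control right in each panel; points are libraries, marker shapes are library numbers, and bars are mean ± SD over 4 libraries. The groups are separate for 8 genes, while for Csf1r, C1qa, Trem2 and Ccl6 at least 1 KO library falls among the controls.

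The ligands of CSF1R differed from each other. Csf1, made by stromal and endothelial cells, had 99.5, 84.6, 88.3 and 95.4 CPM in KO, against 82.0, 65.3, 74.5 and 69.9 CPM in control. Every KO library exceeded every control library, and Csf1 rose 1.26-fold (log2 0.33 ± 0.08 SE, adjusted p = 0.00737). Il34, the other ligand, averaged 1.14 ± 0.444 CPM in KO against 1.46 ± 0.407 CPM in control, with a 95% interval of the log2 fold change from -1.03 to 0.30 (adjusted p = 0.409).

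None of the 4 resident macrophage receptors was called by edgeR, none had an unadjusted p under 0.05, DESeq2 called none, and limma-voom called Cd163 lower. Among all tested genes 27.9% were called by edgeR, and 4 genes are too few to set against that share. Mrc1, the mannose receptor, averaged 70.2 ± 7.91 CPM in KO against 65.5 ± 8.23 CPM in control, with a 95% interval of the log2 fold change from -0.12 to 0.32. Cd163, the scavenger receptor for haemoglobin and haptoglobin, had 40.0, 26.0, 21.7 and 30.6 CPM in KO, against 37.7, 36.2, 31.8 and 39.3 CPM in control. Library KO 1, whose library name prefix no other library shared, was the highest of all 8. The other 3 KO libraries lay below every control library. The log2 fold change was -0.29 (adjusted p = 0.223), and without KO 1 it was -0.48 and was called lower (adjusted p = 0.0124); limma-voom, which also weights libraries, gave -0.48 (adjusted p = 0.0168). Timd4, a receptor for phosphatidylserine, averaged 4.54 ± 1.82 CPM in KO against 3.17 ± 0.691 CPM in control, with KO 4 at 7.15 CPM. The folate receptor gene Folr2 averaged 6.17 ± 1.21 CPM in KO against 5.45 ± 1.31 CPM in control, but 63.1% of its exon bases overlap the antisense gene Gm10602 (3.55 CPM in KO, 4.40 CPM in control), and whether the counting used strand is not stated in the sources used here.

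The receptors that mark recruited or monocyte-derived cells were low and were not called. Ccr2, the receptor by which monocytes follow CCL2, had 8.85, 7.52, 4.85 and 5.36 CPM in KO, against 4.45, 2.70, 5.79 and 3.49 CPM in control (1.62-fold, adjusted p = 0.0655). The KO libraries overlapped the controls through control 3 alone, and Ccr2 was called higher without KO 3, without control 3, with scaling to total counts and by DESeq2, with adjusted p down to 0.0197. Cx3cr1, the fractalkine receptor, had 20.9, 11.6, 10.8 and 14.0 CPM in KO, against 9.08, 4.64, 12.4 and 9.70 CPM in control (1.60-fold, adjusted p = 0.152).

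The receptors and class II genes were also set against Csf1r in the same library. The ratio of Cd163 to Csf1r was 0.359, 0.234, 0.237 and 0.240 in KO, against 0.419, 0.430, 0.353 and 0.410 in control. KO 1 again stood among the controls, and the two-sided exact permutation p was 0.0571, or 0.457 after Benjamini-Hochberg adjustment over 10 such ratios, where 0.0286 is the smallest p that 4 against 4 can give. The other 9 ratios were those of Mrc1, Timd4, Folr2, Ccr2, Cx3cr1, Cd74, H2-Aa, H2-Ab1 and H2-Eb1. They overlapped between groups as well, with adjusted p from 0.457 to 0.657. After adjustment over 10 ratios, a single ratio with the smallest p of 0.0286 could not by itself have passed the threshold for a call. The adjusted values therefore cannot decide whether any single gene changed relative to Csf1r.

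Complement genes held 4 of the 12 calls. These were 66.7% of the 6 complement members, all higher, against 14.8% of all tested genes. C1qa, C1qb and C1qc encode the chains of the C1q molecule and lie within one stretch of chromosome 4 (chr4:136895917-136898803, chr4:136880129-136886187 and chr4:136889804-136893065, all minus strand, GRCm38). C1qa had 75.4, 71.0, 59.4 and 80.3 CPM in KO, against 56.3, 43.6, 60.7 and 57.3 CPM in control. C1qb had 48.6, 45.2, 38.5 and 52.1 CPM in KO, against 36.7, 33.2, 36.2 and 35.6 CPM in control. C1qc had 55.3, 44.7, 42.1 and 57.0 CPM in KO, against 40.2, 32.4, 39.5 and 39.2 CPM in control. The groups were separate for C1qb and C1qc, while C1qa in KO 3 lay below control 3. The fold changes were alike in size: 1.31-fold for C1qa (adjusted p = 0.0263), 1.30-fold for C1qb (0.00601) and 1.32-fold for C1qc (0.0176). The C1qa call ended when KO 1, KO 2, KO 4 or control 1 was left out (adjusted p up to 0.0747), the C1qc call was lost without KO 4 (0.0518), and the C1qb call was kept whichever library was left out.

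C3ar1, the receptor for the C3a fragment (ENSMUSG00000040552, chr6:122847138-122856161, minus strand, GRCm38), rose most. It had 15.3, 7.12, 7.90 and 11.3 CPM in KO, against 5.46, 4.97, 5.49 and 5.68 CPM in control. All KO libraries were above the narrow range of the controls, with KO 1 the highest (1.93-fold, log2 0.95 ± 0.22 SE, adjusted p = 0.00803). Without KO 1 the log2 fold change was 0.70. Its ligand precursor C3 had 1339.7, 1460.2, 801 and 943 CPM in KO, against 974, 876, 1105 and 1041 CPM in control. Libraries KO 1 and KO 2 lay above every control library, KO 3 lay below all of them, and the gene was not called (log2 0.19, 95% interval -0.23 to 0.60, adjusted p = 0.494). C5ar1, the C5a receptor, averaged 7.55 ± 1.75 CPM in KO against 6.05 ± 0.995 CPM in control and was not called (adjusted p = 0.197).

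Among 28 tested genes of a wider complement list, 9 rose and 1 fell (35.7% called, against 27.9% of all tested genes). C4b, the component C4 that precedes C3 in the classical pathway, averaged 138 ± 27.2 CPM in KO against 69.3 ± 8.93 CPM in control (2.00-fold, adjusted p = 0.000879). Masp1, a protease of the lectin pathway, was 1.78-fold higher (adjusted p = 0.000155), and Cd59a, an inhibitor of the membrane attack complex, averaged 198 ± 12.3 CPM in KO against 97.1 ± 4.80 CPM in control (2.04-fold, adjusted p = 5.65e-07). Vtn, encoding vitronectin, which also restrains the terminal complex, fell 2.23-fold (adjusted p = 0.00131). C4b has the near-identical copy C4a, at 0.586 CPM in KO against 0.499 CPM in control, and reads could be split between them.

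Fc receptors and their adaptors held 1 call. This was 16.7% of the 6 members, near the 14.8% of all tested genes that rose. Trem2, a lipid-sensing receptor of macrophages, had 5.90, 4.91, 4.58 and 5.80 CPM in KO, against 3.17, 2.52, 3.85 and 4.58 CPM in control (1.50-fold, adjusted p = 0.0346). KO 3 and control 4 were level, and leaving out any one of KO 1, KO 2, KO 4, control 1 and control 2 ended the call (adjusted p up to 0.0933). Tyrobp, the adaptor through which TREM2 signals, averaged 10.8 ± 1.42 CPM in KO against 8.49 ± 1.12 CPM in control (1.28-fold, adjusted p = 0.056), and was called higher without KO 3 (adjusted p = 0.042). Fcgr1, the high-affinity IgG receptor, had 4.31, 3.23, 3.11 and 4.55 CPM in KO, against 2.55, 2.77, 2.88 and 3.00 CPM in control, so its groups were separate, yet it was not called (adjusted p = 0.0728). The activating receptor Fcgr3, the inhibitory receptor Fcgr2b and the adaptor Fcer1g had log2 fold changes of 0.27, 0.13 and 0.32 with adjusted p of 0.0988, 0.550 and 0.137. Fcgr2b and Fcgr3 are close paralogues and could share reads.

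Of 11 tested genes in a wider list of Fc receptors and phagocytosis genes, 5 rose and 2 fell (63.6% called, against 27.9% of all tested genes). Fcgrt, the neonatal Fc receptor, which endothelial cells also express, averaged 154 ± 2.96 CPM in KO against 107 ± 3.82 CPM in control (1.45-fold, adjusted p = 1.62e-05), and the integrin gene Itgal was 1.74-fold higher (adjusted p = 0.00266). Fcgr4, an activating receptor named here after its values were seen, averaged 1.95 ± 0.569 CPM in KO against 0.971 ± 0.163 CPM in control (2.01-fold, adjusted p = 0.00994).

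Of the 7 chemokine genes 3 rose (42.9%, against 14.8% of all tested genes). Cx3cl1, the membrane-bound fractalkine of endothelium and other stromal cells (ENSMUSG00000031778, chr8:94772009-94782427, plus strand, GRCm38), had 10.7, 9.28, 9.59 and 11.8 CPM in KO, against 6.19, 4.11, 6.23 and 6.32 CPM in control. The groups were widely separate, at 1.81-fold (log2 0.86 ± 0.15 SE, adjusted p = 0.00109), and the call held in all 22 alternative settings. Its receptor Cx3cr1 was not called, as given above. Cxcl16, a scavenger receptor and chemokine, had 27.7, 26.3, 25.7 and 27.1 CPM in KO, against 21.1, 19.2, 24.3 and 19.7 CPM in control (1.27-fold, adjusted p = 0.00895). All KO libraries lay above the controls. Exons of Cxcl16 share 18.3% of their bases with Zmynd15 on the opposite strand, which also rose (1.33-fold, adjusted p = 0.0141), and without a known strand setting the reads of the pair cannot be told apart. The CXCL16 receptor gene Cxcr6 was low, at 0.373 CPM in KO against 0.447 CPM in control (adjusted p = 0.544).

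Ccl6, a macrophage chemokine of the mouse, had 31.4, 23.3, 18.2 and 31.7 CPM in KO, against 21.6, 14.8, 17.5 and 14.0 CPM in control (1.54-fold, adjusted p = 0.0442). KO 3 lay within the control range, and leaving out any one of KO 1, KO 2, KO 4 and controls 2, 3 and 4 ended the call (adjusted p up to 0.118). Its receptor Ccr1 averaged 2.92 CPM in KO against 1.38 CPM in control (adjusted p = 0.0735), and was called higher without KO 3 or control 3 (adjusted p down to 0.0231). Ccl2, the main monocyte attractant, had 2.36, 1.02, 1.14 and 2.76 CPM in KO, against 2.24, 0.983, 1.17 and 0.866 CPM in control. The high libraries were KO 1, KO 4 and control 1, and Ccl2 was not called, with a 95% interval of the log2 fold change from -0.40 to 1.33 (adjusted p = 0.413). Ccl9 averaged 10.3 ± 2.07 CPM in KO against 9.49 ± 1.64 CPM in control, and Ccl24, an attractant of eosinophils, averaged 2.53 ± 0.318 CPM in KO against 2.45 ± 0.653 CPM in control.

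Cxcl12, the stromal chemokine that retains leukocytes and guides vessels, averaged 45.5 ± 6.67 CPM in KO against 52.4 ± 7.25 CPM in control and was not called (adjusted p = 0.233). Ackr3, the receptor that scavenges CXCL12, averaged 104 ± 12 CPM in KO against 68.1 ± 7.72 CPM in control (1.53-fold, adjusted p = 0.000617), whereas its signalling receptor Cxcr4 averaged 6.95 ± 1.02 CPM in KO against 6.25 ± 0.716 CPM in control (adjusted p = 0.426). In a wider list of chemokine receptors 5 of 15 tested genes rose and 1 fell (40% called, against 27.9% of all tested genes). The scavenging receptor gene Ackr4 was 2.02-fold higher (adjusted p = 0.00116) and Ccrl2 was 1.43-fold higher (adjusted p = 0.0171, and 0.0524 without KO 4). Of 18 tested other chemokines 3 rose and 1 fell (22.2% called, against 27.9% of all tested genes). Cxcl10, an interferon-induced chemokine, averaged 1.12 ± 0.221 CPM in KO against 0.378 ± 0.276 CPM in control (2.96-fold, adjusted p = 0.0188), with the call lost without KO 4 (adjusted p = 0.0565). Ccl27a was 1.52-fold higher (adjusted p = 0.00267). Ccl20 and Ccl21a had no count in any library.

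MHC class II genes, which present peptides to CD4+ T cells, had overlapping groups. None of the 4 was called by edgeR, DESeq2 or limma-voom, and none had an unadjusted p under 0.05. By edgeR 27.9% of all tested genes were called, a share that 4 genes are too few to be set against. Cd74, the invariant chain, had 45.4, 55.3, 51.3 and 67.0 CPM in KO, against 42.8, 43.9, 51.7 and 51.0 CPM in control (95% interval of the log2 fold change -0.04 to 0.46). H2-Ab1 averaged 20.5 ± 2.99 CPM in KO against 20.7 ± 3.25 CPM in control (-0.30 to 0.27). H2-Aa averaged 25.5 ± 3.70 CPM in KO against 23.3 ± 3.11 CPM in control (-0.13 to 0.38), and H2-Eb1, whose window is printed above, averaged 23.4 ± 2.83 CPM in KO against 21.9 ± 2.09 CPM in control (-0.12 to 0.32). These intervals leave room for rises of up to 1.37-fold for Cd74, 1.30-fold for H2-Aa and 1.24-fold for H2-Eb1. In the wider machinery of class II presentation 2 of 15 tested genes fell (13.3%, against 13.1% of all tested genes lower) and 13 were not called. They were Rfxap, a subunit of the class II promoter complex RFX (1.36-fold, adjusted p = 0.00181), and Lgmn, a lysosomal protease (1.13-fold, adjusted p = 0.0277), while the class II transactivator Ciita was not called (adjusted p = 0.099). The call of Lgmn was lost without KO 2, KO 4, control 1 or control 2, and Ciita was called higher without KO 1 (adjusted p = 0.0285).

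**Figure D3:**
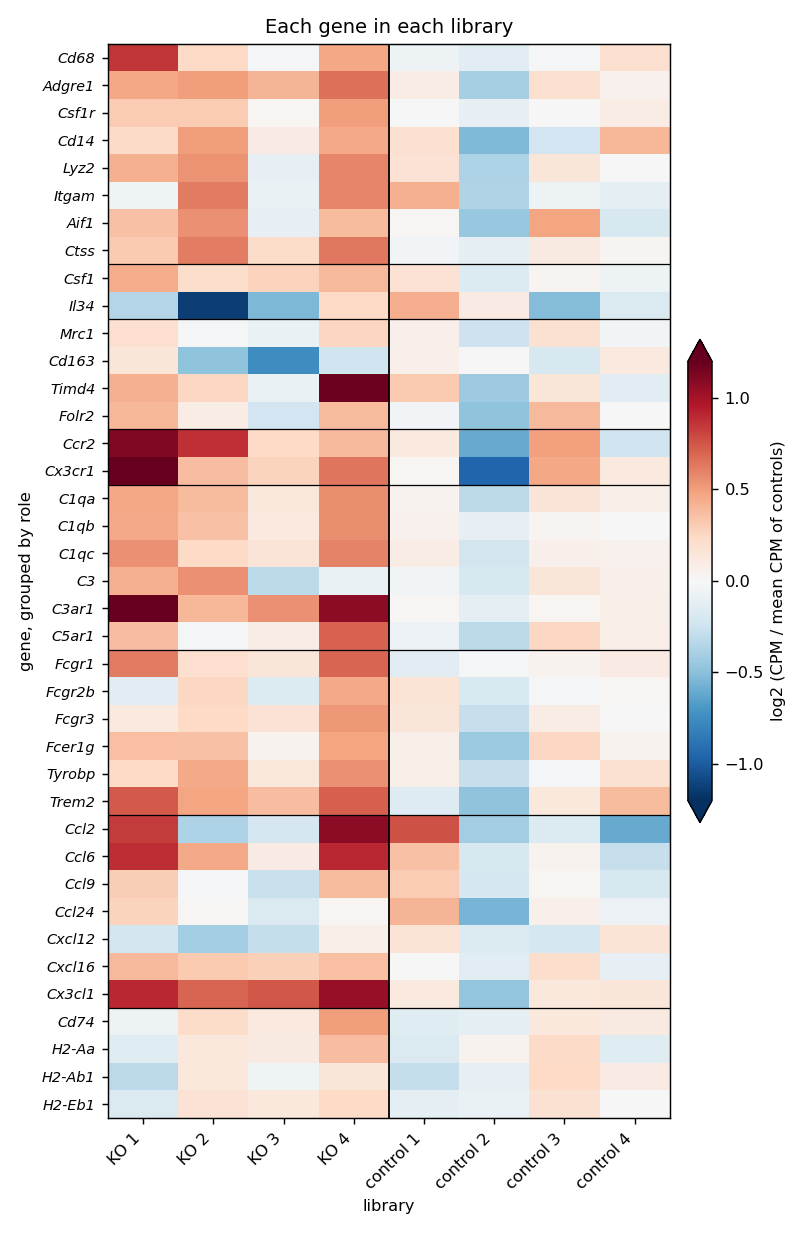
Log2 of CPM over the mean of the 4 controls, as colour (clipped at 1.2 either way), for the 39 genes (rows, by role) in the 4 KO libraries, left, and the 4 control libraries, right. Library KO 4 is the highest KO library for 25 genes, KO 3 the lowest for 27, and control 2 the lowest control for 29.

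The same libraries recurred at the ends of each group across the 39 genes. Among the KO libraries KO 4 was highest for 25 genes and lowest for none, and KO 3 was lowest for 27 and highest for none. Among the control libraries control 2 was lowest for 29 genes and highest for none. Without KO 3 the count of members that rose was 16, and without KO 4 it was 7, where 2231 and 2110 of all genes rose. Against controls 1 and 2 alone it was 6, and against controls 3 and 4 alone it was 3, namely Adgre1, Csf1 and Cx3cl1. Of all genes 1843 and 1700 rose against these pairs of controls, beside 2677 in the main fit. With KO 2 and control 2 both left out the count of members was 8, and with Y-linked expression as a covariate it was 11. Over all genes these settings gave 2013 and 2448 higher. Controls 1 and 2, without Y-linked expression, shared a library name prefix in the labels, and controls 3 and 4, with it, shared another. In that split of the controls, prefix and Y-linked expression cannot be told apart.

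Other macrophage genes were listed with earlier results of these data known, and describe the surroundings of the members. Of 210 tested genes over the 12 wider lists, 68 rose and 12 fell (38.1% called, against 27.9% of all tested genes), with a median log2 fold change of 0.29. Each count of a wider or cell type list stands beside 14.8% higher and 13.1% lower among all tested genes. Of 33 tested surface and lysosomal macrophage genes 13 rose and 1 fell. Among them were Tlr4, the endotoxin receptor, at 25.3 ± 2.92 CPM in KO against 16.6 ± 1.99 CPM in control (1.52-fold, adjusted p = 0.00127), Mpeg1, a pore-forming protein of macrophages, at 27.0 ± 6.99 CPM in KO against 15.97 ± 1.43 CPM in control (1.69-fold, adjusted p = 0.00718), and Ptprc, the CD45 antigen shared by all leukocytes, at 33.6 ± 7.90 CPM in KO against 17.6 ± 4.87 CPM in control (1.91-fold, adjusted p = 0.012).

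Of 18 tested genes of resident cells and clearance 6 rose and 12 were not called. Gas6, a bridge between dying cells and their receptors that stromal cells also make, averaged 519 ± 24.1 CPM in KO against 388 ± 14.8 CPM in control (1.34-fold, adjusted p = 0.000264), and the scavenger receptor Stab1 was 1.27-fold higher (adjusted p = 0.00366). The resident macrophage markers Lyve1 and F13a1, named after their values were seen, were not called, at 75.4 ± 14.6 CPM in KO against 99.5 ± 20.5 CPM in control for Lyve1 (adjusted p = 0.129) and 56.1 ± 12.9 CPM in KO against 56.2 ± 9.81 CPM in control for F13a1 (adjusted p = 0.991). Of 11 tested monocyte genes 1 rose, Vcan (1.38-fold, adjusted p = 0.0485), which fibroblasts also make, and 10 were not called by edgeR. The share called was 9.09%, against 27.9% of all tested genes. All 11 had a positive log2 fold change, with a median of 0.54. At an unadjusted p under 0.05 there were 5 higher, and DESeq2 called 3 higher and limma-voom 4. Vcan lost its call when any one of 5 libraries was left out, namely controls 2 and 4 and KO 1, KO 2 and KO 4, with adjusted p up to 0.114.

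Of 15 tested genes of lipid-associated macrophages 7 rose and 2 fell. Apoe was 1.36-fold higher (adjusted p = 0.000911), whereas Lgals3, encoding galectin-3, averaged 70.7 ± 5.94 CPM in KO against 125 ± 18.4 CPM in control (1.76-fold lower, adjusted p = 0.000143) and Lpl, a lipase that cardiomyocytes also make, was 1.37-fold lower (adjusted p = 0.00174). Of 15 tested myeloid transcription factors 5 rose and 2 fell. Nr1h3, the oxysterol receptor LXR alpha, was 1.37-fold higher (adjusted p = 0.000348) and Irf5 was 1.39-fold higher (adjusted p = 0.00775), while Spi1, encoding PU.1, averaged 7.29 ± 1.60 CPM in KO against 5.22 ± 0.985 CPM in control and was not called (adjusted p = 0.0675). Of 21 tested signalling genes 11 rose and 10 were not called. Plcg2, the phospholipase downstream of ITAM receptors, averaged 25.5 ± 1.52 CPM in KO against 10.3 ± 1.66 CPM in control (2.48-fold, adjusted p = 5.11e-06), and Cybb, the phagocyte oxidase subunit, was 1.49-fold higher (adjusted p = 0.00535). Of 17 tested cytokines and growth factor receptors 3 rose and 1 fell. The one that fell was Il6, at 0.132 ± 0.0998 CPM in KO against 1.13 ± 0.177 CPM in control (8.53-fold lower, adjusted p = 0.00025), which rests on 19 counts in KO and 177 counts in control.

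Markers of some other cell types also moved in the same libraries. Cardiomyocyte markers summed to 68221 to 84947 CPM in KO and 107776 to 117016 CPM in control, with 10 of 12 lower and 1 higher. Endothelial markers summed to 2798 to 3193 CPM in KO and 2308 to 2567 CPM in control, with 7 of 10 higher and 1 lower. Fibroblast markers summed to 11333 to 13701 CPM in KO and 10766 to 11317 CPM in control, with 6 of 10 higher. The sums were thus 1.22 times (endothelial), 1.13 times (fibroblast) and, with 6 of 8 epicardial markers higher, 1.34 times (epicardial) those of control. The 8 macrophage lineage markers stood at 1.29 times and cardiomyocytes at 0.668 times. Sums of the other cell types given below ran from 0.803 times (smooth muscle and pericytes) to 2.66 times (eosinophils). CPM is a share of a library, and all libraries were therefore also scaled to the 20 endothelial and fibroblast markers. Under this setting 2 members rose, C3ar1 (log2 0.68, adjusted p = 0.0268) and Cx3cl1 (log2 0.58, adjusted p = 0.00599), and 2 fell, Cd163 (log2 -0.56, adjusted p = 0.0241) and Cxcl12 (log2 -0.48, adjusted p = 0.00479). That scaling called 1136 of all 18033 tested genes higher and 7750 lower. It moved the median log2 fold change of all genes to -0.26 and that of the members to 0.06. A scaling shifts all genes by about the same amount. The distance between these medians is thus nearly fixed by the method and is no test of the members.

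**Figure D4:**
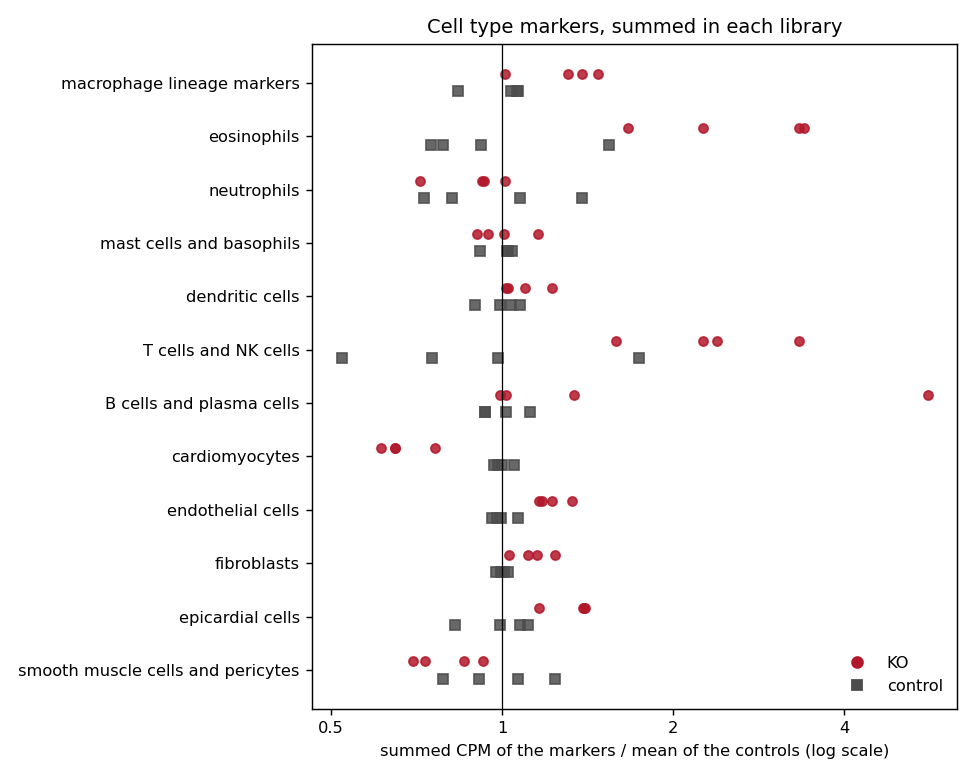
Summed CPM of the markers of each cell type over the mean of the 4 controls (log axis), with KO libraries as circles above control libraries as squares in each line. Cardiomyocyte sums in KO are all below those in control and endothelial sums all above, while the macrophage lineage sums overlap (284 to 413 CPM in KO, 234 to 299 CPM in control).

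Among leukocytes, T cell and NK cell markers summed to 67.2 to 141 CPM in KO and 22.1 to 73.7 CPM in control, with 4 of 10 tested genes higher. Cd3e, a chain of the T cell receptor complex, averaged 3.91 ± 1.35 CPM in KO against 1.31 ± 0.862 CPM in control (2.97-fold, adjusted p = 0.0239), though not when KO 2 or control 4 was left out (adjusted p up to 0.0607). B cell and plasma cell markers summed to 18.1 to 103 CPM in KO and 17.0 to 20.5 CPM in control, where KO 4 gave the value of 103 CPM, and 1 of 9 tested genes fell. Of 3 tested eosinophil genes 1 rose, the peroxidase gene Epx, at 4.70 ± 0.801 CPM in KO against 0.0955 ± 0.0554 CPM in control (adjusted p = 2.85e-07). The other defining eosinophil genes Prg2 and Siglecf, named after their values were seen, had 18 and 21 counts in all KO libraries against 18 and 16 counts in all control libraries, too few to test. Neutrophil markers summed to 5.42 to 7.67 CPM in KO and 5.51 to 10.5 CPM in control, mast cell markers to 26.6 to 34 CPM in KO and 26.9 to 30.6 CPM in control, and dendritic cell markers to 23.8 to 28.6 CPM in KO and 21.0 to 25.2 CPM in control. None of the 6, 6 and 9 tested genes of these 3 lists was called by edgeR or DESeq2, limma-voom called 1 neutrophil gene lower, and at an unadjusted p under 0.05 there was 1 neutrophil gene lower, 1 mast cell gene higher and 1 dendritic cell gene higher. Smooth muscle and pericyte markers summed to 446 to 591 CPM in KO and 502 to 791 CPM in control, with 4 of 8 higher and 2 lower. The part of these other cells in the macrophage values was not tested.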

How the data were processed

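Messenger RNA of atria was selected by oligo-dT and sequenced, per the labels' protocols. The authors' deposited table gives, for each gene and each of 8 libraries, an unnormalised count of reads. The submitters' processing notes name STAR, DESeq2 and mm10, without versions. Which program, strand setting and annotation were used for counting is not given in the sources used here. Groups came from the vector named in the labels (4 KO, 4 control).

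Counts were analysed with edgeR 4.0.16 under R 4.3.3. The filter was filterByExpr (minimum count 10, minimum total count 15), and libraries were scaled by TMM factors and compared by the robust quasi-likelihood test without covariates, on 6 residual degrees of freedom (common dispersion 0.0204). Adjustment ran over all 18033 tested genes by the Benjamini-Hochberg method, and a call needed an adjusted p under 0.05. Levels are CPM on the TMM scale, as mean ± SD over 4 libraries, and 95% intervals come from the same fit. A count of 3 in a library equals 0.0744 to 0.0885 CPM, which covers counting error only. No library was a copy of another: the chi-square per degree of freedom of replicate pairs ran from 12.2 to 31.4. The test was tested on simulated data.

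DESeq2 1.42.0, limma-voom (limma 3.58.1), other scalings, filters, covariates and library subsets were alternatives. Exon lengths and overlaps came from GENCODE M21, promoter windows from RefSeq on GRCm38.p6. The members and all lists were chosen with earlier results of these data known. All 39 members were described by role, with per-library values for called, abundant and defining members. From each wider list up to 4 genes with the smallest p could be named. Not every gene that this rule picked is named. Genes named otherwise are partners of members or are said to be picked with their values known. Library name prefixes in the labels differ between the groups throughout, so prefix and group cannot be told apart.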

Additional observations from a re-analysis of the deposited data

Results flagged for a closer look

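Both values below are single libraries far from the rest of their group of 4. Over 78 groups (39 genes in KO and in control) 2 stood out, where chance gives about 1 in 20. C1qc was at 32.4 CPM in control 2, against 39.2 to 40.2 CPM in the other controls. Cx3cl1 was at 4.11 CPM in control 2, against 6.19 to 6.32 CPM in the other controls. Without control 2 both genes were still called higher in KO.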

How the results depend on the processing

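Scalings by DESeq2 size factors or upper quartiles, no filter and no robust shrinkage each gave 12 members higher in KO (without the filter Tyrobp was called and Ccl6 was not), total counts 17, a CPM filter 13, DESeq2 15 and limma-voom 10. The count was 6 against controls 1 and 2, 3 against controls 3 and 4, and 2 when scaled to endothelial and fibroblast markers. Leaving out 1 library gave 7 (without KO 4) to 16 (without KO 3). Members lower were 1 with limma-voom and 2 with the marker scaling, and 0 to 1 with a library left out, Cd163 being the 1, without KO 1. Over all genes, 1843 were higher against controls 1 and 2 and 1700 against controls 3 and 4. The marker scaling gave 1136 higher and 7750 lower, beside 2677 higher and 2355 lower with TMM. A library left out gave 2032 to 2687 higher and 1877 to 2614 lower. The marker scaling turned Tie1 to -0.071 and Pdgfrb to -0.012 (log2); both are markers of other cells, and Tie1 is among the genes scaled to. The cause of these shifts was not tested. With the replicate number as a block 12 members were higher and 0 lower, and over all genes 2474 and 2283. The deviations of same-numbered KO and control libraries correlated at -0.02, 0.30, -0.06 and 0.10. KO 2 and control 2 deviated together, but not every pair did, so the numbers were not taken to pair the libraries. Depth limits low genes: Ccr3, at 0.138 CPM in KO against 0.140 CPM in control, did not pass the filter.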
